A study of Mus musculus with 1778 samples.

Results

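Contractile cytoskeleton genes were followed in single cells of the mouse cranial neural crest lineage. The set holds 9 genes of the 24920 in the count table, chosen by name: 2 muscle actins (Acta2, Actc1), the calponins Cnn1, Cnn2 and Cnn3 with the related transgelin Tagln, the myosin light chain Myl9, and the tropomyosins Tpm1 and Tpm2. Cells were sorted by flow cytometry from C57BL/6 embryos that carry Wnt1::Cre and Rosa26TdTomato, and each cell was sequenced on its own by Smart-Seq2, a full-length cDNA method without molecular identifiers. Embryos were taken at 4, 6, 8 and 10 somites, which gave 13.4%, 48.4%, 12.8% and 25.4% of the 1778 cells. Every stage shares the same genotype and label, and there is no unlabelled or untreated group. Wnt1::Cre is active in the dorsal neural tube, so the label marks cells descended from it and is not a marker of migrating crest alone. Embryos and litters are not named for the cells, so a stage counts as 1 pool and no test between stages was possible.

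Smooth muscle and cardiac actins form the thin filaments of contractile cells, and both can be used early in mesodermal and heart development before muscle is mature. Calponins and transgelin bind actin filaments: Cnn1 and Tagln are classical smooth muscle genes, while Cnn2 and Cnn3 are used by many non-muscle cells. Tropomyosins coil along the filament and control access of myosin, and Myl9 is a regulatory light chain whose phosphorylation switches myosin on. Many of these genes are targets of serum response factor, Srf, which binds a short sequence called the CArG box with help from cofactors of the myocardin family. Cranial neural crest gives rise later to smooth muscle and pericytes of head vessels, besides cartilage, bone, neurons, glia and pigment cells.

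Promoter windows are shown because several of these genes are textbook Srf targets, and the windows show which members have an exact match to the CArG consensus near the start. RefSeq gave a window of 250 bases before to 50 bases after the start for 8 of the 9 genes (build GRCm38.p6), all but Tagln. The CArG box was searched by its consensus on both strands, on which it reads alike. An exact match stood in 3 of the 8 windows, those of Actc1, Myl9 and Cnn2, and in 1.63% of the 32851 windows of the RefSeq table. Near matches were not counted, such as ccctatatgg in the windows of Acta2 and Actc1. Capitals mark the exact match, and the Acta2 window is printed beside them as the other muscle actin, with no exact match. A match is a sequence feature only, and no match says no more than that these letters are not in this window.
Actc1, chr2:114052826-114053125, minus strand: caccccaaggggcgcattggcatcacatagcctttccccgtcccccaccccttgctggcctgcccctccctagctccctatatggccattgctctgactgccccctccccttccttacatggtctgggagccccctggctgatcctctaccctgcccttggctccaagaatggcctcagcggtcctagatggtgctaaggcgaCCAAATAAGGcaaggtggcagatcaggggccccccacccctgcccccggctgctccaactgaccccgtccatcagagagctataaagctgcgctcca
Myl9, chr2:156775214-156775513, plus strand: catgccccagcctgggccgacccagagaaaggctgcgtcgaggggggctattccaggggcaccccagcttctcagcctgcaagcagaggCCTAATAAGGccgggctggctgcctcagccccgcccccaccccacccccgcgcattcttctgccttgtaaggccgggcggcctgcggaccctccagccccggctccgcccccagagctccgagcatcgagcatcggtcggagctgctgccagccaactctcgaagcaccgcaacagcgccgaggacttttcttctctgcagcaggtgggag
Cnn2, chr10:79988350-79988649, plus strand: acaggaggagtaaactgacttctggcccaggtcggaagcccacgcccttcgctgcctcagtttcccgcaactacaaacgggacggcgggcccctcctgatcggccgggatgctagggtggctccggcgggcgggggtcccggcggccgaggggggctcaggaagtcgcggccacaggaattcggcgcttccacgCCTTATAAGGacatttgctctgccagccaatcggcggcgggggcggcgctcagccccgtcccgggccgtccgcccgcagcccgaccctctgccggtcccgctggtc
Acta2, chr19:34255324-34255623, minus strand: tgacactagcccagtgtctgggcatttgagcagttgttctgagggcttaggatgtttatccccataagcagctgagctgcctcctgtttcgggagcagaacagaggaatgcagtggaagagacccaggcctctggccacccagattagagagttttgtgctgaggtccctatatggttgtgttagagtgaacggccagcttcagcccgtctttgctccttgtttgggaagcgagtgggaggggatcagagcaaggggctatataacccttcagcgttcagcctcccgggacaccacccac

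The exact match began 47 bases before the start in Actc1, 56 before it in Cnn2 and farther upstream in Myl9, as the capitals show. The 3 genes with an exact match differed widely in the share of cells with a read, from 72.6% of all kept cells for Cnn2 to 6.37% for Actc1. In the GENCODE vM21 models of the same build, Acta2 spans chr19:34241090-34255590, Actc1 chr2:114047282-114053548, Myl9 chr2:156775420-156781658, Cnn2 chr10:79988584-79996062, Cnn3 chr3:121426497-121458207, Cnn1 chr9:22099216-22109630 and Tagln chr9:45929619-45936058, and Tpm1 and Tpm2 lie on chr9:67022590-67049406 and chr4:43514711-43523765. Tagln shares 62.4% of its exon bases with the antisense model Gm48529 and 5.43% with Pcsk7, and Cnn3 shares 17.7% with Gm42928, each on the opposite strand. The counting is not stated to use strand, so reads of these partners cannot be told apart.

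After cells with under 50000 reads or 1500 genes were left out, 1728 cells were kept, of which 12.7%, 48.3%, 13.1% and 25.8% were of 4, 6, 8 and 10 somites. The ribosomal RNA row Rn45s took between 44.4% and 59.2% of a stage's reads and was left out of the scale, so levels are reads per 1000000 of the remaining reads (RPM). These came to a median of 470506, 342303, 517650 and 351778 reads per cell at 4, 6, 8 and 10 somites. The cell titles carry 8 plate numbers, called A to H here in ascending order, which made 12 pools of stage and plate. Plate B was shared by 6, 8 and 10 somites and held 93.4% of the cells of 8 somites, plate D was shared by 4 and 8 somites, and plate F by 4 and 6. At least 1 read of Sox10, a transcription factor of migrating crest, was present in 17.7%, 32.8%, 75.8% and 80.5% of cells of 4, 6, 8 and 10 somites. Of the 7 neural crest markers, the 6 other than Sox10 itself were all at least 2-fold higher in cells with Sox10 reads at every stage. Their summed levels were 383.6 to 844.7 RPM, against 30.9 to 110.4 RPM in cells without. These values describe the Sox10 split and are no check of the lineage label, which all cells share. In 27.3% of cells at least 3 markers of a single other type (cardiac, endothelium, erythroid, surface ectoderm, head mesoderm, or endoderm and floor plate) stood at 10 RPM or more, in 22.6% of cells with Sox10 reads and 31.8% of cells without.

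The 9 genes fell into a common and a rare set. Per kilobase of exons over all kept cells, Cnn3 had 453.9 RPM, Cnn2 83.3, Tpm1 24.03, Myl9 19.5, Actc1 13.97, Tpm2 8.83, Acta2 5.58, Tagln 1.26 and Cnn1 0.514. The place of Actc1 in that order rests on 2 cells, which held 84.8% of its reads. Reads of Cnn3 were present in 99.7% of cells, of Tpm1 in 95.3%, of Tpm2 in 76.9%, of Cnn2 in 72.6% and of Myl9 in 49.3%. Reads of Tagln were present in 9.66% of cells, of Acta2 in 8.62%, of Actc1 in 6.37% and of Cnn1 in 3.53%. Because a level summed over cells can come from a few of them, each gene is described by its summed RPM, by its median cell, and by the share of cells with a read after every cell was thinned to 50000 reads.

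**Figure D1:**
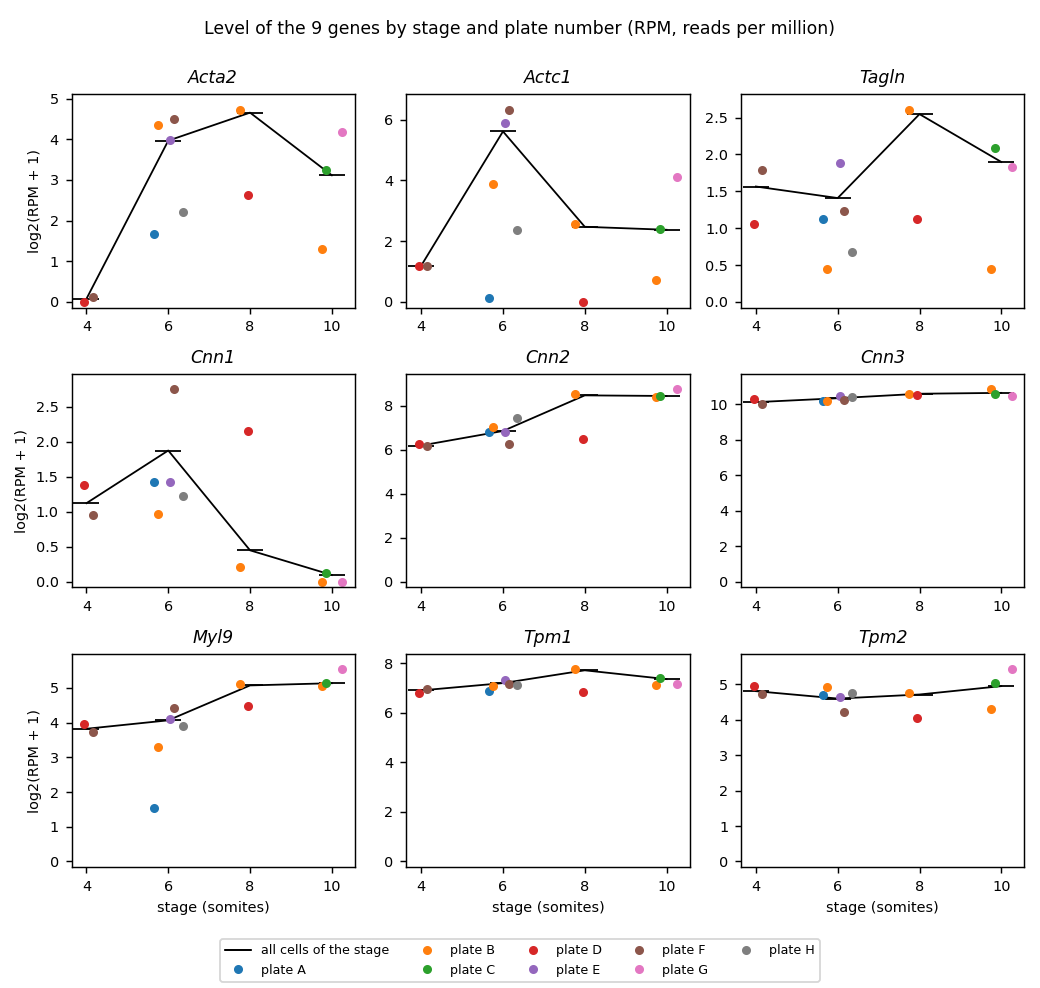
Level of each gene as log2(RPM + 1) by stage in somites; the black line joins the values over all cells of a stage and each point is 1 pool of stage and plate number, coloured by plate number. The lines of Cnn3 and Tpm2 are nearly level, Cnn2 and Myl9 are higher at 8 and 10 somites on most plate numbers, and the points of Acta2, Actc1 and Cnn1 are spread widely within 6 somites.

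Cnn3, the broadly used calponin, was the most abundant member at every stage, with 1107, 1291, 1538 and 1591 RPM at 4, 6, 8 and 10 somites. Its median cell had 1073, 1256, 1499 and 1546 RPM, so the small difference ran through the bulk of the cells. At 10 somites it was 1.44-fold higher than at 4 somites (log2 0.52, counting interval 0.51 to 0.53). No plate number holds cells of both these stages. Here and below, their ratio within plate numbers adds 6 against 4 somites on plate F to 10 against 6 on plate B. It therefore also holds any gap between the 6-somite levels of these plates. For Cnn3 this ratio was 0.87. The 12 pools lay between 1033 and 1818 RPM. Cells with Sox10 reads had slightly more Cnn3 than cells without in 7 of the 8 pairs of the same stage and plate number that had at least 10 cells on both sides, with log2 ratios between -0.05 and 0.54. At 10 somites these were 1614 RPM in cells with Sox10 reads and 1477 RPM in cells without.

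Cnn2, the calponin of migrating and adherent non-muscle cells, showed the largest difference between stages among the common members over all cells. The sum over plates F and B for 10 against 4 somites was log2 1.501 for Cnn2 and 2.61 for Myl9. For both genes the 6-somite levels differed between these plates, so no order of the genes is read from the sums. Cnn2 had 71.8, 114.01, 351.96 and 345.3 RPM at 4, 6, 8 and 10 somites, and its median cell had 32.5, 36.001, 178.2 and 265.7 RPM. The share of cells with a Cnn2 read after thinning was 55.5%, 54.9%, 81.9% and 87.3%, with 95% exact intervals of 48.6 to 62.1%, 51.4 to 58.3%, 76.3 to 86.7% and 83.9 to 90.3%. At 8 somites Cnn2 was 3.09-fold higher than at 6 somites (log2 1.63), and on the plate number that both stages share, plate B, it had 370.1 RPM at 8 somites and 129.1 RPM at 6 somites (log2 1.52). The 15 cells of 8 somites on plate D did not show it: they had 87.97 RPM, against 74.4 RPM in the 4-somite cells of that number, and without plate B the log2 ratio of 8 against 6 somites was -0.35. Between 6 and 4 somites on plate F the levels were close, at 75.99 and 70.4 RPM. At 10 somites the 3 plate numbers lay between 338.5 and 424.2 RPM, all above every pool of 4 and 6 somites.

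From 6 somites on, Cnn2 was read in more of the cells with Sox10 reads than of the cells without. The share of cells with a Cnn2 read was 94.7% (91.9 to 96.8%) in cells with Sox10 reads and 55.4% (44.1 to 66.3%) in cells without at 10 somites. At 8 somites it was 91.3% and 52.7%, and at 6 somites 73.6% and 45.7%, in the same order. At 4 somites it was 51.3% in cells with Sox10 reads and 56.4% in cells without, and the intervals overlap. Within plate numbers the share was higher with Sox10 reads in 5 of 8 pairs and lower in 3, which were both pairs of 4 somites and plate F at 6 somites. The median cell had 293.3 RPM with Sox10 reads and 21.2 RPM without at 10 somites, and 208.2 against 47.8 RPM at 8 somites. Summed levels were closer, at 356.4 RPM in cells with Sox10 reads and 290.5 RPM in cells without at 10 somites (log2 0.30), while 6 of the 87 cells without held at least 50% of that group's reads. When cells with markers of another type were left out, the 10-somite ratio was 1.98, with 344.2 RPM in cells with Sox10 reads and 87.1 RPM in cells without. Median depth at 10 somites was 364291 reads in cells with Sox10 reads and 300704 in cells without, and the shares are taken at 1 fixed depth.

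**Figure D2:**
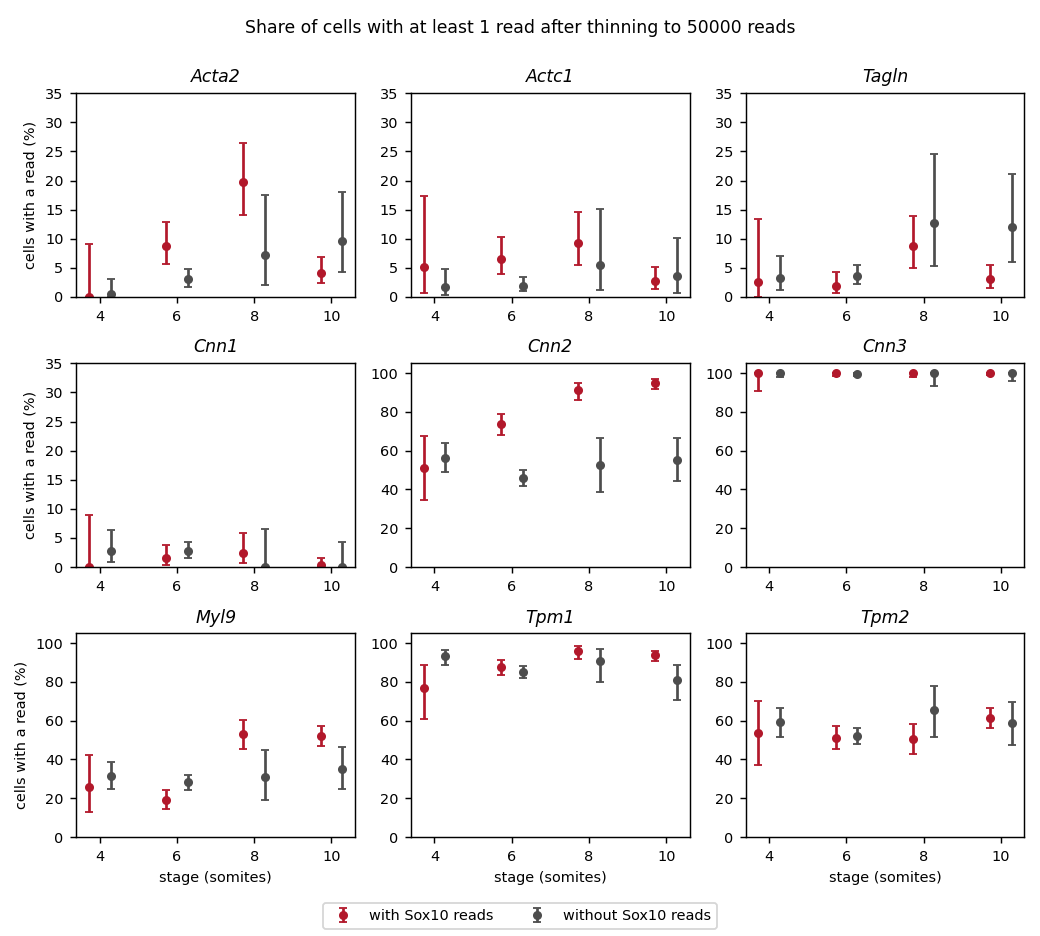
Share of cells (%) with at least 1 read of each gene after thinning every cell to 50000 reads, by stage in somites, for cells with Sox10 reads (red) and without (grey); bars are 95% exact binomial intervals for counting error and the panels of the rare genes end at 35%. Cnn2 separates the 2 kinds of cells at 6, 8 and 10 somites, and Cnn3 is at or near 100% in both.

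Cnn1, the smooth muscle calponin, was barely present, and over all cells was lowest at 10 somites. It had 1.18, 2.67, 0.365 and 0.0688 RPM at 4, 6, 8 and 10 somites, with reads in 12, 32, 13 and 4 cells. At 10 somites it was 16.5-fold lower than at 4 somites (log2 -4.04, counting interval -5.09 to -3.24). Within plate numbers that comparison gave only a bound, at most -0.65, since the 55 cells of 10 somites on plate B had 0 reads. On plate D it was higher at 8 somites than at 4 somites, at 3.44 and 1.62 RPM (log2 1.10). Among the 5 plate numbers of 6 somites, plate F had 5.72 RPM and the others 0.947 to 1.70 RPM. Without that plate number, Cnn1 at 6 against 4 somites had a log2 ratio of -0.12, where the ratio over all cells was 1.18.

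Over all cells, Myl9 was higher at the 2 later stages in both level and share of cells. It had 13.1, 15.7, 32.5 and 34.1 RPM at 4, 6, 8 and 10 somites, and after thinning 30.5%, 25.2%, 47.6% and 48.9% of cells had a read. The ratio of 10 against 4 somites was 1.38 on the log2 scale over all cells and 2.61 within plate numbers. The second value joins steps on plates F and B, whose 6-somite levels were 20.5 and 8.78 RPM. On plate B, Myl9 had 8.78, 33.3 and 32.2 RPM at 6, 8 and 10 somites. The 8-somite cells of plate D had 21.3 RPM, against 14.6 RPM in its 4-somite cells. The 6-somite cells of plate F had 20.5 RPM, close to that 8-somite value, so the stages were not apart on every plate number. In summed reads, cells with Sox10 reads had less Myl9 than cells without in 7 of 8 pairs, but the share of cells with a read was higher in 4 pairs and lower in 4, and the median cell was higher in 3 and lower in 0. At 6 somites that was 8.97 RPM with Sox10 reads and 18.9 RPM without, and the share of cells with a read ran the same way, at 19.05% and 28.2%. At 8 somites the share was 52.9% in cells with Sox10 reads and 30.9% in cells without, and the levels were close, at 33.3 and 30.3 RPM. At 10 somites the level was 32.4 RPM with Sox10 reads and 42.4 RPM without, while the shares were 52.1% and 34.9%, so no order is read from that stage. Leaving out cells that carry markers of another type gave log2 ratios of -1.53, -0.96, 0.23 and 0.64 at 4, 6, 8 and 10 somites.

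Tpm1, an actin filament coat protein of muscle and non-muscle cells, had a steady median cell and an uneven upper end. It had 118.2, 145.2, 208.04 and 162.4 RPM at 4, 6, 8 and 10 somites, but the median cell stood at 93.9, 98.3, 104.3 and 92.6 RPM. The highest single cells had 976.7, 6525, 2862 and 3677 RPM at these stages. In summed reads Tpm1 was lower in cells with Sox10 reads than in cells without in 8 of 8 pairs of the same stage and plate number, with log2 ratios between -1.46 and -0.32. At 10 somites it had 130.5 RPM in cells with Sox10 reads and 319.7 RPM in cells without (log2 -1.29). The median cells there were nearly equal, at 92.2 RPM with Sox10 reads and 94.999 RPM without, and 5 of the 87 cells without Sox10 reads held at least 50% of that group's reads. Without cells that carry markers of another type the ratio at 10 somites was -0.11, and at 6 and 8 somites it was -0.25 and 0.10. At 4 somites the difference held in the median cell too, with 53.5 RPM in cells with Sox10 reads and 97.01 RPM in cells without.

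Tpm2 was close between stages over all cells, with 26.9, 23.1, 25.1 and 29.8 RPM at 4, 6, 8 and 10 somites and a read in 58.2%, 51.9%, 54.2% and 61.1% of thinned cells. Over all cells the ratio of 10 against 4 somites was 0.15 on the log2 scale, and within plate numbers it was -1.20, so no direction is given. In summed reads, cells with Sox10 reads had less Tpm2 in 8 of 8 pairs, by -1.63 to -0.04 on the log2 scale, with 22.5 RPM against 32.9 RPM in cells without at 8 somites. The share of cells with a Tpm2 read and the median cell were each lower in 6 pairs and higher in 2. Without cells that carry markers of another type the ratios were -0.01, -0.18, -0.43 and 0.02 at 4, 6, 8 and 10 somites. Over all plates of a stage, cells with and without Sox10 reads differed by less than 2-fold for Tpm2 at each of the 4 stages.

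**Figure D3:**
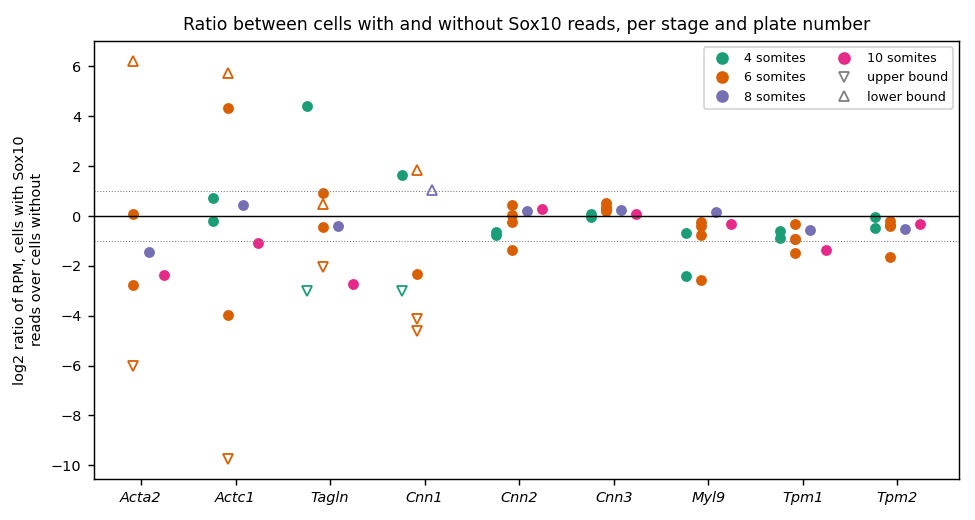
Log2 ratio of RPM in cells with Sox10 reads over cells without, for each gene; each point is 1 pair of the same stage (colour) and plate number with at least 10 cells on both sides, open triangles are bounds where 1 side had 0 reads, and dotted lines mark 2-fold. Tpm1 and Tpm2 lie below 0 in 8 of 8 pairs, Cnn3 above 0 in 7 of 8, and the rare genes lie on both sides.

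The rare members Acta2, Actc1 and Tagln came from few cells, and 2 cells of 6 somites decided much of the summed level. Acta2, smooth muscle alpha-actin, had 0.0552, 14.6, 24.2 and 7.66 RPM at 4, 6, 8 and 10 somites, and its reads lay in 1, 52, 53 and 43 cells. Actc1, cardiac alpha-actin, had 1.29, 48.003, 4.56 and 4.19 RPM, in 9, 37, 33 and 31 cells. The 2 cells with most Actc1 reads, on plates E and F, had 7028 and 6437 of its 14467 reads at 6 somites (93.1%) and 1266 and 1696 of the 4408 reads of Acta2 (67.2%). Both had reads of all 10 cardiac markers, among them Myh6, Ttn, Tnnt2 and Nkx2-5, and 0 reads of Sox10. The second also had reads of 3 of 6 neuroepithelium markers, Sox2, Pax2 and Sox21, which summed to 220.7 RPM. In the first, 0 of these 6 markers had reads. Both cells also had reads of Cnn1 at 882.6 and 521.6 RPM, of Myl9 at 1791 and 603.7 RPM and of Tpm1 at 6525 and 2763 RPM, and the first had 0 reads of Cnn3. Without these 2 cells, 6 somites had 3.33 RPM of Actc1, 4.81 of Acta2 and 1.28 of Cnn1. At least 3 cardiac markers stood at 10 RPM or more in 3 cells of 4 somites, 8 of 6 somites and 0 of 8 and 10 somites, none of them with Sox10 reads.

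**Figure D4:**
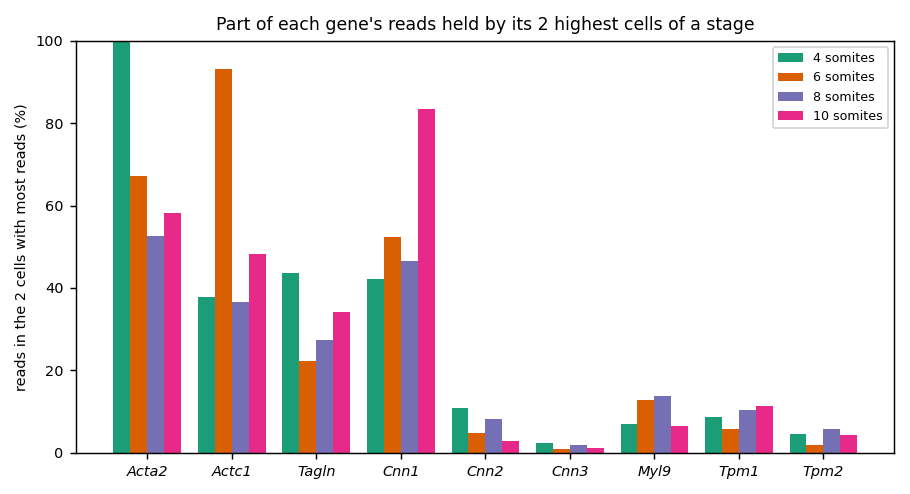
Part of each gene's reads (%) held by the 2 cells with most reads at each stage. The bar of Actc1 at 6 somites stands at 93.1%, those of Acta2 at 67.2%, 52.6% and 58.1% at 6, 8 and 10 somites, and every bar of Cnn3 is under 2.5%.

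Over all plates, Acta2 and Actc1 reads were in the largest share of cells at 8 somites. After thinning, 0.455%, 4.92%, 16.7% and 5.20% of cells had an Acta2 read at 4, 6, 8 and 10 somites (1, 41, 38 and 23 cells), with an exact interval of 12.1 to 22.3% at 8 somites. For Actc1 the shares were 2.27%, 3.48%, 8.37% and 2.94%. These shares moved with the plate number as well as the stage. On plate B the Acta2 share was 19.4%, 16.98% and 5.45% at 6, 8 and 10 somites, and the other 4 plate numbers of 6 somites had 1.11 to 7.45%. For Actc1 the plate B shares were 19.4%, 8.96% and 1.82% at 6, 8 and 10 somites, so 8 somites was not the highest there, and the other 4 plate numbers of 6 somites had 0 to 2.78%. The part of plate number in the stage difference was not tested. At 4 somites Acta2 had 0 reads in the 92 cells of plate D and 6 reads, all in 1 cell, on plate F.

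Tagln, the smooth muscle transgelin, had 1.96, 1.66, 4.85 and 2.73 RPM at 4, 6, 8 and 10 somites and a read in 3.18%, 3.001%, 9.69% and 4.75% of thinned cells. Its reads at 8 somites lay in 45 cells, against 53 cells for Acta2, but were less concentrated. The 2 highest cells of that stage held 27.3% of the Tagln reads and 52.6% of the Acta2 reads. At 8 somites Tagln was 2.93-fold higher than at 6 somites (log2 1.55), with 5.10 RPM at 8 somites and 0.359 RPM at 6 somites on plate B, but without that plate number the ratio was -0.52.

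Between cells with and without Sox10 reads, the rare members gave no steady order in summed reads. The share of cells with an Actc1 read was higher with Sox10 reads in 7 of 8 pairs of the same stage and plate number and lower in 1. For Tagln that share was lower in 6 pairs and higher in 1. For Acta2 it was higher in 3 and lower in 4, and for Cnn1 higher in 3 and lower in 5. These shares rest on few cells. At 6 somites Acta2 had 8.27 RPM in cells with Sox10 reads and 17.6 RPM in cells without (log2 -1.09), and without the 2 cells 8.27 and 3.17 RPM (log2 1.39). Actc1 had 6.99 and 67.4 RPM in the same order (log2 -3.27), and without the 2 cells 6.99 and 1.60 RPM (log2 2.13). At 8 somites Acta2 had 16.6 RPM in cells with Sox10 reads and 46.3 RPM in cells without (log2 -1.48), but 19.8% of thinned cells with Sox10 reads had an Acta2 read, against 7.27% of those without, and 1 cell held 84.01% of the reads in the second group. At 10 somites Acta2, Actc1 and Tagln were lower in cells with Sox10 reads, at 3.903, 2.82 and 1.26 RPM, against 26.2, 10.9 and 9.96 RPM in cells without. Those 3 values of the cells without came from 9, 3 and 15 cells, and the shares for Tagln ran the same way, at 3.06% with Sox10 reads and 12.05% without.

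Against the whole table the stage differences of the set were as follows. At 10 against 4 somites, 4 of 9 members were at least 2-fold higher (Acta2, Actc1, Cnn2 and Myl9), where 6.17% of 10205 genes with at least 5 RPM in either stage were, and 1 was lower (Cnn1), where 6.65% were. Of the 6 members that met 5 RPM themselves, 3 were higher and 0 lower. The members that met it in the other stage comparisons numbered 7 at 6 against 4 somites (2 higher, 0 lower), 7 at 8 against 6 (2 higher, 1 lower) and 6 at 10 against 8 (0 higher, 1 lower). At 6 against 4 somites 3 members were higher (Acta2, Actc1 and Cnn1; 2.12% of genes) and 0 lower (0.733% of genes). At 8 against 6 somites 3 were higher (Tagln, Cnn2 and Myl9; 2.84%) and 2 lower (Actc1 and Cnn1; 3.56%), and without the 2 cells Actc1 was no longer lower, at a ratio of 0.45. On plate B, which holds neither of them, Actc1 was still lower, at 4.87 RPM at 8 somites and 13.7 RPM at 6 somites (log2 -1.49). At 10 against 8 somites 0 were higher (0.593%) and 2 lower (Acta2 and Cnn1; 0.774%), but without plate B, which leaves 15 cells of 8 somites, 4 were higher and 1 lower, and Acta2 had a log2 ratio of 0.78 in place of -1.66. Without plate B, the 8 against 6 somites comparison had 0 higher members. The median ratio of the 9 members was 0.52, 0.30, 0.52 and -0.12 in these comparisons, and the median of all genes with at least 20 RPM in both stages was 0.02, 0.005, 0.01 and -0.01. The reads of dissociation stress genes also differed, with summed levels of 669.3, 625.02, 272.3 and 410.4 RPM at 4, 6, 8 and 10 somites, and their part in these values was not tested.

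In the Sox10 comparisons more members were lower than higher at 4, 6 and 10 somites, and at 8 somites the numbers were equal. Over all genes the share that was lower also exceeded the share that was higher at every stage, so this order is not particular to the members. At 4 somites a ratio could be given for 8 of 9 members, of which 0 were at least 2-fold higher (2.62% of genes) and 1 lower, Myl9 (5.79% of genes). At 6 somites 0 were higher (2.27%) and 4 lower, Acta2, Actc1, Cnn1 and Myl9 (6.14%), of which only Cnn1 was still lower without the 2 cells, when 2 members, Acta2 and Actc1, were higher. At 8 somites 1 was higher, Cnn1 with 43 against 0 reads (3.0%), and 1 lower, Acta2 (10.0%). At 10 somites, again with a ratio for 8 of 9, 0 were higher (2.44%) and 4 lower, Acta2, Actc1, Tagln and Tpm1 (12.7%). Of the 5, 7, 7 and 8 members that met 5 RPM at 4, 6, 8 and 10 somites, 0 were higher at any stage, and 1, 3, 1 and 4 were lower. The median ratio of the members with a ratio was -0.19, -0.69, 0.12 and -0.85 at 4, 6, 8 and 10 somites, and that of all genes with at least 20 RPM on both sides was -0.01, -0.02, -0.02 and -0.01. Markers of other types differed between these cells as well. At 10 somites endothelial markers summed to 109.1 RPM in cells with Sox10 reads and 526.4 RPM in cells without, and head mesoderm markers to 41.5 and 182.7 RPM. Surface ectoderm markers summed to 27.3 and 199.6 RPM and cardiac markers to 2.17 and 12.1 RPM, in the same order. In these lists 8 of 8, 6 of 7, 5 of 7 and 1 of 10 markers met 5 RPM on either side, and each of those was at least 2-fold lower with Sox10 reads. Of all markers in these lists 0 were at 0 reads in the cells with Sox10 reads, and 1 head mesoderm and 2 cardiac markers were in the cells without. Not every list ran this way: erythroid markers summed to 194.6 RPM in cells with Sox10 reads and 0.232 RPM in cells without at 8 somites, and surface ectoderm markers to 278.95 and 199.6 RPM at 4 somites. The part of these cells in the member ratios was not tested. Cells with markers of another type held 48.2% of the Tpm1 reads and 52.02% of the Acta2 reads at 10 somites, while they were 24.4% of the cells. At 6 somites they held 88.5% of the Acta2 and 97.1% of the Actc1 reads, and at 8 somites 68.99% of the Acta2 and 28.5% of the Actc1 reads.

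Actc1, Cnn2, Myl9 and Tagln were each read in a larger share of cells with Acta2 than of cells without. Nearly every cell had a read of some member, since Cnn3 was read in 99.8% of all thinned cells. After thinning, 5.98% of 1722 cells had an Acta2 read and 66 cells an Actc1 read, and 35 had both, which is 33.98% of the cells with Acta2 and 53.03% of those with Actc1. Of the 1619 cells without an Acta2 read, 1.91% had Actc1. Cnn2 was read in 97.1% of cells with Acta2, against 64.9% of cells without, Myl9 in 67.96% against 32.8% and Tagln in 19.4% against 3.40%. Desmin, an intermediate filament of muscle, was read in 48.5% against 17.8%, and smoothelin, Smtn, in 70.9% against 42.7%. These shares are pooled over stages and plate numbers, whose part was not tested. From 4 to 8 somites the share of cells with a read went from 0.455% to 16.7% for Acta2. For Cnn2 it went from 55.5% to 81.9% and for Myl9 from 30.5% to 47.6%. No share over all genes stands beside these values. Sox10 was read in 66.02% of cells with Acta2, against 44.97% of cells without. The order of Sox10 differed by stage, with 53.7% against 29.5% at 6 somites, 81.6% against 70.4% at 8 and 65.2% against 79.5% at 10.

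Markers of head mesoderm and of endothelium were each read in a larger share of cells with Acta2 than of cells without, 7 of 7 and 8 of 8 genes of these lists, and in 5 of each list the counting intervals were apart. No share over all genes stands beside these counts. The cells are pooled over stages and plate numbers, and cells with Acta2 were 0.455% at 4 somites and 16.7% at 8. The part of stage and plate number was not tested. The 10 cardiac markers ran the same way, with intervals apart for 6, but several rest on few cells. Tnnc1, Myh7 and Ryr2 were each read in 3 of the cells with Acta2, and Ttn in 4. Before thinning, the 2 cells with most Actc1 reads had reads of Acta2 and of all 10 cardiac markers. Their part in the direction of this list was not tested. The forkhead factor Foxc2 was read in 42.7% of cells with Acta2, against 8.09% of cells without, Tbx1 in 37.9% against 9.94% and the VEGF receptor Kdr in 47.6% against 15.998%. For Foxc2 this was 53.7%, 34.2% and 39.1% of the Acta2 cells of 6, 8 and 10 somites, against 8.08%, 9.52% and 8.11% of the others. Pecam1, an endothelial adhesion gene, was read in 8.74% against 3.83%, and the cardiac genes Nkx2-5 and Myl7 in 5.83% against 1.11% and 10.7% against 3.40%. Epcam and Sox2, epithelial and neural genes, were read at like shares, 32.04% against 26.4% and 44.7% against 47.2%. These genes were picked for display with the data in view. Cells with Tagln reads differed, since 38.7% of the 75 had Sox10, against 46.6% of cells without Tagln.

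**Figure D5:**
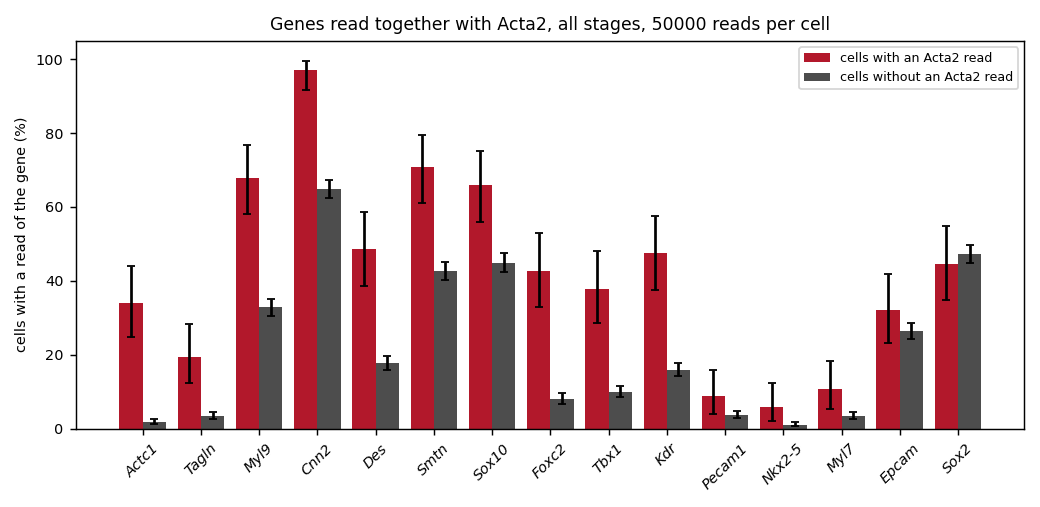
Share of cells (%) with a read of each gene among cells with an Acta2 read (red) and the 1619 cells without (grey), all stages, after thinning to 50000 reads; bars are 95% exact binomial intervals for counting error. Actc1, Cnn2, Foxc2, Tbx1 and Kdr stand higher beside Acta2, and Sox2 and Epcam stand at like heights.

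Across the 1728 kept cells, with the mean of each stage and plate number pool subtracted from log2(RPM + 1), Pearson's r was 0.48 between Acta2 and Actc1, 0.39 between Acta2 and Tagln, 0.33 between Cnn2 and Tpm1 and 0.29 between Cnn2 and Myl9. These are descriptions, since cells of a pool share its plate number and the rare genes are at 0 in most cells. Among 10791 genes read in at least 10% of cells, those most like Acta2 were Foxl2 (0.40), S1pr3 (0.36), Pcolce (0.36), Svep1 (0.34) and Cdc42ep3 (0.32), and those most like Actc1 were Pcolce (0.28), Cd248 (0.25), S1pr3 (0.25), Myl7 (0.24) and Myl9 (0.24). Cnn2 was most like Hapln1 (0.50), Emilin1 (0.46), Fam212a (0.45), H19 (0.44) and the crest factor Ets1 (0.41). Tpm1 was most like the imprinted genes H19 (0.35) and Igf2 (0.34), and its 5 nearest genes also included Cnn2 (0.33) and Hapln1 (0.30). Myl9 was most like Cnn2 (0.29), Cd248 (0.27), Pdgfrb (0.27), Tpm1 (0.25) and Pcolce (0.25). Cnn3 was most like Ywhaq (0.42), Ube2n (0.42), Mrfap1 (0.42), Arf4 (0.41) and Ctnnb1 (0.39), all read in over 99% of cells. Tagln was most like Ahnak (0.34), Foxl2 (0.27), S1pr3 (0.24), Myl9 (0.22) and Anxa2 (0.21), and the highest r was 0.19 for both Cnn1, with Myl7, and Tpm2, with Foxd1.

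The wider actin machinery gives the setting of these values. The cytoplasmic actins Actb and Actg1 were far more abundant than the muscle actins and nearly level, at 3152, 3241, 3911 and 3864 RPM and 4641, 3979, 4843 and 4701 RPM at 4, 6, 8 and 10 somites. Skeletal Acta1 had 0.902, 5.16, 2.17 and 0.356 RPM. Of 12 other smooth muscle and calponin-family genes, 9 had at least 5 RPM in either stage, and at 10 against 4 somites 2 of these were at least 2-fold higher and 1 lower. Caldesmon, Cald1, which binds actin and tropomyosin, was higher (149.5 against 53.1 RPM, log2 1.49, and 0.93 within plate numbers), as was Des (13.7 against 6.54 RPM, log2 1.07, and 0.44 within plate numbers). The smoothelin-like Smtnl2 was lower, at 40.7 against 243.6 RPM (log2 -2.58, and -1.58 within plate numbers). Csrp1, a LIM protein of actin filaments, had 61.4 against 30.8 RPM (log2 0.997, just under 2-fold, and -0.09 within plate numbers). The definitive smooth muscle myosin Myh11 had under 0.5 RPM at every stage, and Lmod1 likewise.

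Among 7 measured tropomyosins and non-muscle myosins 0 were 2-fold apart, and the widest was Tpm4, at 1263 RPM at 10 somites and 669.3 RPM at 4 somites (log2 0.92, and 0.85 within plate numbers). The light chain Myl12b had 54.3 against 102.6 RPM (log2 -0.92, and -0.31 within plate numbers). Of 10 actin cross-linkers and adhesion plaque genes 3 were at least 2-fold higher at 10 somites and 0 lower, with a median of 0.55. They included talin Tln1 (139.2 against 61.2 RPM, log2 1.19, and 1.02 within plate numbers) and Vasp (28.7 against 13.5 RPM, log2 1.085, and 0.39 within plate numbers). Srf itself had 17.1, 13.8, 27.4 and 23.04 RPM, and its cofactor Mkl1 had 16.9, 17.9, 24.7 and 19.97 RPM at 4, 6, 8 and 10 somites. Of 6 measured genes of Srf and its cofactors 0 were 2-fold apart at 10 against 4 somites, and Myocd, the cardiac and smooth muscle cofactor, had 0.598, 3.81, 0.917 and 0.504 RPM.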

How the data were processed

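The values are counts, as the authors deposited them: whole reads of each gene in each cell, with no molecular identifiers, from Smart-Seq2 and Nextera XT libraries per the labels' protocols. STAR 2.6, bcl2fastq 2.18 and mm10 stand in the submitters' processing notes; for the read counter, annotation and filters the sources used here give nothing. The plate number is the 7-digit number in each title, and the labels do not say what it means.

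Cells with at least 50000 reads (Rn45s included, spike-ins not) and 1500 genes were kept. Reads were summed per pool and divided by all reads except Rn45s and spike-ins, and 0.5 reads were added for log2 ratios. Pairs of sums of at most 3 reads each got no ratio, and a sum of 0 was set at 3 to give a bound. Within plates, 10 against 4 somites adds 6 against 4 on plate F to 10 against 6 on plate B, and Sox10 ratios are Mantel-Haenszel ratios over plates. Intervals are 95% and exact and cover counting error only. Shares use cells thinned to 50000 reads, which left out 6 kept cells. No cells had identical values (0 found). No doublet caller was run on these singly sorted cells. Named genes were the members, up to 4 genes a list with the largest ratio of 10 against 4 somites among those with at least 5 RPM at some stage, and for each member the 5 genes most alike by Pearson's r, unnamed models, pseudogenes and ribosomal genes left out. A few genes and 1 list that this rule names are not reported here. Myh11, Lmod1, Myocd and the genes compared beside Acta2 were chosen after their values were seen. The members and lists were chosen with earlier results of these data known. Python 3.11.15, numpy 2.4.6, pandas 2.3.3, scipy 1.17.1, edgeR 4.0.16 (TMM factors only) and DESeq2 1.42.0 (size factors only) were used, and the ratio script was tested on simulated data.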

Additional observations from a re-analysis of the deposited data

Results flagged for a closer look

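Cnn1 stood out on 1 plate of 6 somites. Of the 5 plate numbers of that stage, plate F had 5.72 RPM and the other 4 had 0.947 to 1.70 RPM, and the gap to the nearest took 0.843 of the whole range, above the critical value of 0.710 for 5 values (Dixon's rule). The cell with most Cnn1 reads on plate F held 59.96% of them and is among the 2 cells with most Actc1 reads. Each of the 9 genes was looked at in this way, and chance alone marks about 1 in 20 such groups.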

How the results depend on the processing

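Of 1041 member ratios under alternatives, 37.8% belong to ratios that were at least 2-fold at first, of which 91.3% stayed so in the same direction and 11 were reversed. Scaling with Rn45s, edgeR's TMM factors, DESeq2's size factors, both other filters on cells and 5 added reads reversed none and moved no count of members by over 1.5 times; with Rn45s the median of all genes was 0.45 at 8 against 6 somites. Without cells that carry another type, 6 against 4 somites had 1 higher and 1 lower member in place of 3 and 0, 8 against 6 had 5 and 1 in place of 3 and 2 with Actc1 at 1.13, the Sox10 comparison had 3 lower at 4 somites, 1 higher and 1 lower at 6 (Actc1 at 2.13), 0 lower at 8 (Acta2 at 0.0559) and 1 higher at 10 somites. Without the 2 cells with most Actc1 reads, an alternative chosen after seeing the data, 8 against 6 somites had 1 lower member (Actc1 at 0.45), and the Sox10 comparison at 6 somites had 2 higher and 1 lower (Acta2 at 1.39, Actc1 at 2.13). Sox10 split at 10 RPM or on thinned reads gave 4 and 5 lower members at 4 somites in place of 1, and at 8 somites the mean per cell and the ratio within plate numbers gave 0 higher in place of 1. Leaving out each plate number gave ranges of 4 to 5 higher and 1 to 2 lower at 10 against 4 somites, 2 to 3 and 0 to 1 at 6 against 4, 0 to 4 and 2 to 2 at 8 against 6, and 0 to 4 and 1 to 3 at 10 against 8. In the Sox10 comparisons it gave 1 to 1 higher and 1 to 2 lower at 4 somites, 0 to 0 and 2 to 4 at 6, 1 to 1 and 1 to 1 at 8, and 0 to 0 and 4 to 4 at 10. Single members reversed in that set were Cnn1 at 6 against 4 (-0.12 to 1.5), Tagln (-0.52 to 2.36), Cnn1 (-4.07 to 0.29) and Cnn2 (-0.35 to 1.80) at 8 against 6, and Acta2 at 10 against 8 (-2.41 to 0.78), each with plate B (Cnn1 at 6 against 4: plate F) left out; 15 cells of 8 somites remain without B. Otherwise the cause was not tested. No paired analysis was possible because no result comes from a test and replicate numbers only name cells; plate numbers that groups share were used for the within-plate ratios. Depth limits the rare genes: at 4 somites 3 reads are 0.0276 RPM.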
